A study of Mus musculus with 6 samples.

Results

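The transcription factors that set the birth order of retinal cell types were examined in bulk RNA sequencing of embryonic mouse retina. The set holds 8 genes taken by name: the nuclear factor I genes Nfia, Nfib, Nfic and Nfix, the zinc-finger genes Ikzf1 and Casz1, and the POU-domain genes Pou2f1 and Pou2f2. All 8 were found among the 55487 counted genes, and all 8 were among the 17275 that passed a filter on low counts. The 3 libraries labelled cKO came from C57BL/6 embryos of embryonic day 16.5 with the genotype Foxp1 fl/fl, Six3-Cre, in which a recombinase driven by Six3 sequence acts on loxP-flanked Foxp1 in the developing retina. The 3 libraries labelled control came from Foxp1 fl/fl embryos of the same strain and age without the recombinase. All 6 embryos came from 1 litter, and both retinas of an animal made 1 library. The series title presents Foxp1 as a gene that Jarid2 represses as retinal progenitors progress from early to late competence. In that light, the question asked of these 8 genes is whether early and late competence factors differ in level between the genotypes.

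Retinal progenitors produce the cell classes in an order that overlaps but is conserved, with ganglion cells, horizontal cells and cones early and rods, bipolar cells and Müller glia late. In mouse, Ikzf1 favours early-born fates, Pou2f1 and Pou2f2 favour cones and restrain the rod gene Nrl, and Casz1 favours rods over Müller glia. Ikzf1, Casz1 and the Pou2f genes are the mammalian counterparts of hunchback, castor and pdm, the temporal series of fly neuroblasts. Nfia, Nfib and Nfix rise in late progenitors, where they promote cell-cycle exit and the bipolar and Müller glial fates.

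The targeted gene went against the labels. Foxp1, a forkhead repressor on chromosome 6 (98925338 to 99522721, mm10), had 1850, 1816 and 1742 counts in labelled cKO 1, 2 and 3, against 1213, 1019 and 1096 counts in labelled control 1, 2 and 3. It was thus higher in the libraries labelled cKO (log2 fold change 0.65, SE 0.07, edgeR adjusted p 4.63e-05), whereas the authors' deposited table lists it at -0.60 for cKO against control. Xist and the Y-linked gene Ddx3y fitted the sex on the label for 4 of the 6 libraries and went against it in labelled cKO 2 and labelled control 2. With the cKO and control labels exchanged at the same replicate number, they fitted in 6 of 6. In the authors' deposited table all 135 genes called here, and 15992 of the 17275 tested, have the opposite sign. Foxp1, the sex-linked genes and the deposited table thus all go against the group labels of the count columns. All of them would go with the labels if the cKO and control groups were exchanged. The directions below follow the labels, and every one of them would turn if the groups were exchanged. The 8 factors would then be higher in Foxp1 cKO, the direction in which the deposited table lists them. No direction below should therefore be read as the effect of losing Foxp1. The fold change of each factor is also given without labelled cKO 2 and labelled control 2, which leaves 2 libraries per group. That fit does not test the group labels. Foxp1 was also higher in labelled cKO 1 and 3 than in labelled control 1 and 3. Replicates 1 and 3 carry the same labelled sex in both groups, so the sex-linked genes could not show an exchange there. Of all tested genes, 135 (0.781%) passed an adjusted p of 0.05 by edgeR's quasi-likelihood test with Benjamini-Hochberg adjustment, 84 lower (0.486%) and 51 higher (0.295%) in the libraries labelled cKO. With 1 library left out the total of 135 ranged from 19 to 778, and without labelled cKO 2 and labelled control 2 it was 9. Total counts were 23707761 to 25714620 per library.

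Markers of retinal progenitors were abundant in all libraries. In CPM (counts per 1000000 of the scaled library size), the eye-field gene Rax averaged 551 in labelled cKO and 553 in labelled control, and Pax6 averaged 658 in labelled cKO and 659 in labelled control. The cyclin gene Ccnd1 averaged 4467 CPM in labelled cKO and 4504 CPM in labelled control, and none of these 3 genes passed by edgeR (adjusted p 0.935 to 0.993).

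All 8 factors had a mean level that was lower in the libraries labelled cKO, and Nfib alone passed the test over all genes. The median log2 fold change of the 8 was -0.20, against 0.00 over all tested genes, of which 49.9% lay below 0. The share of tested genes called lower was 0.486%, and 1 of the 8 factors was called. At an unadjusted p of 0.05, 8.64% of tested genes were lower, and so were 4 of the 8 factors (Nfia, Nfib, Casz1 and Pou2f1). By sign, the factors did not divide by the time at which they act. Ikzf1, Pou2f1 and Pou2f2, which act early, and Nfia, Nfib, Nfix and Casz1, which act later, lay on the same side of 0, as did Nfic. All 8 lay in deciles 8 to 10 of summed exon length, where 57.4%, 68.4% and 80.0% of genes were below 0. With 1 of the 8 called, the shared sign does not settle whether early and late factors differ. In the authors' deposited table all 8 have the opposite sign, higher in cKO. Fewer cells of a type and less RNA per cell cannot be told apart in libraries from whole retinas.

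**Figure D1:**
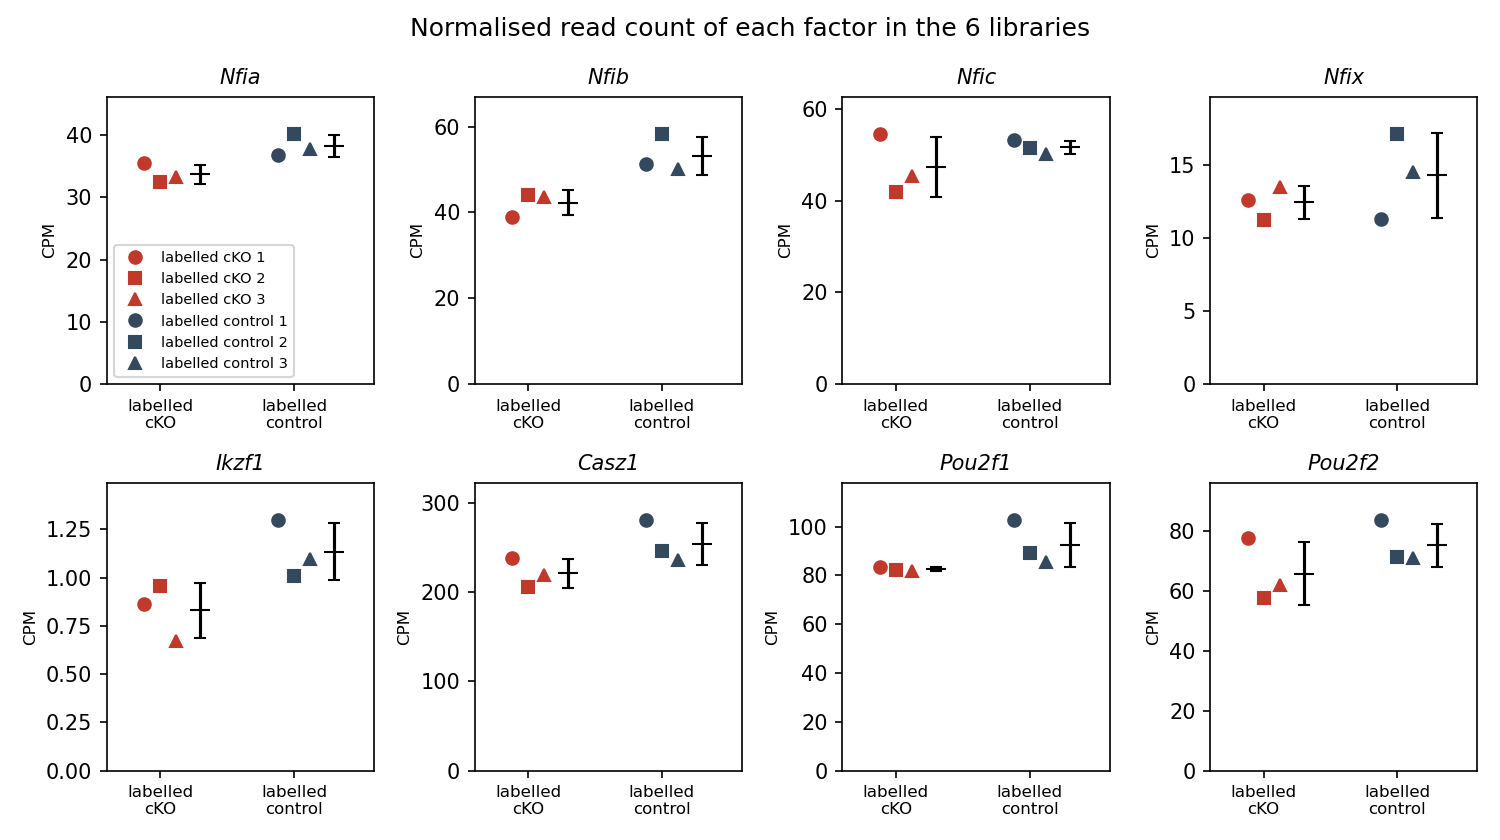
Each panel plots 1 factor in CPM from 0, with the 3 libraries labelled cKO on the left and the 3 labelled control on the right; symbols give the replicate number, and the black bar is the mean with its SD. Nfia, Nfib, Ikzf1 and Pou2f1 have all 3 labelled cKO libraries below all 3 labelled control libraries, while Nfic, Nfix, Casz1 and Pou2f2 overlap. The order without overlap held for 9.30% of all tested genes and for 29.8% of those in the decile of longest exon length.

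Levels differed widely between the factors. Per kilobase of summed exon length, Casz1 was the most abundant at 16.9 to 19.5 CPM per kilobase in labelled cKO and 19.3 to 23.0 in labelled control. Pou2f2 followed at 7.0 to 9.43 in labelled cKO and 8.60 to 10.1 in labelled control, and Nfic at 6.33 to 8.22 in labelled cKO and 7.57 to 8.01 in labelled control. The ranges of Pou2f2 and Nfic over the 6 libraries overlapped, so these neighbours in the order were not separated.

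Pou2f1 came next, at 4.94 to 5.04 CPM per kilobase in labelled cKO and 5.15 to 6.18 in labelled control. Nfia (2.98 to 3.69 over the 6 libraries) and Nfib (2.61 to 3.90) overlapped each other, and Nfix lay below both at 1.53 to 2.32. Ikzf1 stood far below the rest at 0.116 to 0.166 CPM per kilobase in labelled cKO and 0.174 to 0.225 in labelled control. The order of levels at this stage was therefore headed by the rod-favouring factor Casz1, with the cone-favouring Pou2f genes and Nfic behind it, and the early factor Ikzf1 lay close to the filter on low counts.

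**Figure D2:**
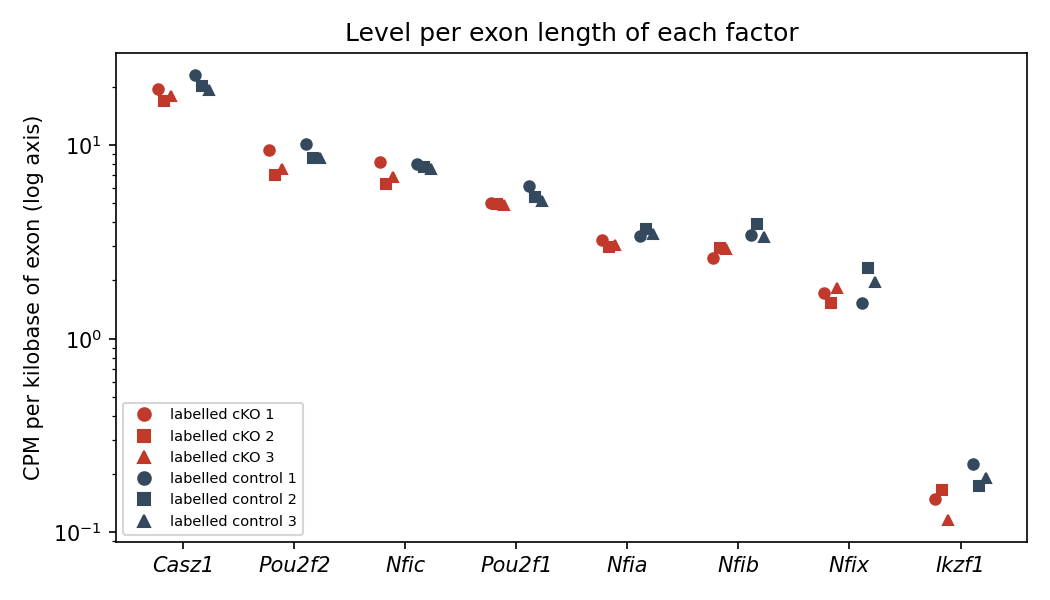
The log axis gives the level of each factor in CPM per kilobase of exon, with labelled cKO libraries in red to the left of labelled control libraries in blue-grey, ordered by the mean of all 6. Casz1 lies highest (16.9 to 23.0) and Ikzf1 lowest (0.116 to 0.225).

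Nfib, the nuclear factor I gene of late progenitors on chromosome 4 (ENSMUSG00000008575, 82290173 to 82705750, minus strand, mm10), was lower in the libraries labelled cKO. It was at 39.0, 44.2 and 43.7 CPM in labelled cKO 1, 2 and 3, against 51.3, 58.3 and 50.2 CPM in labelled control 1, 2 and 3. The groups did not overlap, labelled cKO 1 being the lowest library and labelled control 2 the highest. The means were 42.3 ± 2.84 CPM in labelled cKO and 53.2 ± 4.39 CPM in labelled control (SD, n = 3 each). Nfib was thus 20.6% lower in labelled cKO (log2 fold change -0.33, SE 0.07, 95% interval -0.47 to -0.19, edgeR adjusted p 0.0293). The call was lost without labelled cKO 2 (log2 fold change -0.36, adjusted p 0.101), without labelled cKO 3 (-0.35, 0.102) and without labelled control 2 (-0.26, 0.144). Without both labelled cKO 2 and labelled control 2 it was -0.29 (SE 0.08, adjusted p 0.714). The authors' deposited table lists Nfib at 0.31 with an adjusted p of 0.0151.

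Nfia, which acts with Nfib and Nfix in late progenitors (chromosome 4, 97772734 to 98118874, plus strand, mm10), was at 35.5, 32.5 and 33.2 CPM in labelled cKO 1, 2 and 3. In labelled control 1, 2 and 3 it was at 36.9, 40.2 and 37.7 CPM. The groups did not overlap, but labelled cKO 1 and labelled control 1 lay close together. Its log2 fold change was -0.18 (SE 0.07, 95% interval -0.32 to -0.04), with an edgeR adjusted p of 0.164, so Nfia did not pass. Without labelled cKO 2 and labelled control 2 it was at -0.12 (SE 0.08, adjusted p 0.771).

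Nfix (chromosome 8, 84699876 to 84800344, minus strand, mm10) was the most variable of the family. It was at 12.6, 11.2 and 13.5 CPM in labelled cKO 1, 2 and 3, against 11.3, 17.1 and 14.5 CPM in labelled control 1, 2 and 3. Labelled control 1 lay with the libraries labelled cKO, and labelled control 2 was the highest. Its log2 fold change was -0.20 (SE 0.13, 95% interval -0.48 to 0.08, edgeR adjusted p 0.493). The value depended on the control libraries, being -0.34 without labelled control 1 (adjusted p 0.198) and -0.048 without labelled control 2 (0.915). It was -0.13 without labelled cKO 2, and 0.021 (SE 0.13) without both labelled cKO 2 and labelled control 2.

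Nfic (chromosome 10, 81396186 to 81455635, minus strand, mm10), the fourth paralogue, was at 54.5, 42.0 and 45.4 CPM in labelled cKO 1, 2 and 3, against 53.1, 51.3 and 50.2 CPM in labelled control 1, 2 and 3. The highest of the 6 libraries was labelled cKO 1, so the groups overlapped. Nfic had a log2 fold change of -0.12 (SE 0.08, 95% interval -0.29 to 0.04, edgeR adjusted p 0.475). Without labelled cKO 1 it was -0.24 (adjusted p 0.0571), without labelled cKO 2 it was -0.045 (0.897), and without both labelled cKO 2 and labelled control 2 it was -0.049 (SE 0.09).

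Within the family, the make-up was described as the share of each paralogue in the summed CPM per kilobase. Nfic held 45.9% to 52.0% of it in labelled cKO and 43.9% to 49.0% in labelled control. Nfia held 20.6% to 21.6% in labelled cKO and 20.7% to 21.2% in labelled control, and Nfib 16.5% to 21.4% in labelled cKO and 20.5% to 22.1% in labelled control. The ranges of the 2 groups overlapped for Nfia, Nfib, Nfic and Nfix alike, so no paralogue's share separated the labelled genotypes.

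Casz1, the zinc-finger factor that favours rods (ENSMUSG00000028977, chromosome 4, 148804429 to 148954889, plus strand, mm10), was at 238, 206 and 219 CPM in labelled cKO 1, 2 and 3. In labelled control 1, 2 and 3 it was at 281, 247 and 236 CPM. The groups overlapped, since labelled cKO 1 lay above labelled control 3, and 8 of the 9 pairs of a labelled cKO with a labelled control library had the labelled cKO library lower. Casz1 had a log2 fold change of -0.20 (SE 0.07, 95% interval -0.34 to -0.06, edgeR adjusted p 0.137). It therefore did not pass, although DESeq2 gave an adjusted p of 0.0457 at the same log2 fold change of -0.20, and without labelled control 3 it was -0.25 with an edgeR adjusted p of 0.0392. Without labelled control 1 the log2 fold change was -0.12, and without labelled cKO 2 and labelled control 2 it was -0.18 (adjusted p 0.727). The authors' deposited table has Casz1 at 0.24 with an adjusted p of 0.0124.

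Pou2f1, the octamer-binding factor upstream of Pou2f2 (chromosome 1, 165865154 to 166002678, minus strand, mm10), had 83.6, 82.2 and 81.9 CPM in labelled cKO 1, 2 and 3. It had 102.6, 89.1 and 85.4 CPM in labelled control 1, 2 and 3. The 3 libraries labelled cKO were nearly equal and all lay below the controls, whose spread came mainly from labelled control 1. Pou2f1 had a log2 fold change of -0.16 (SE 0.06, 95% interval -0.28 to -0.04, edgeR adjusted p 0.15), and without labelled control 1 it was -0.079 (adjusted p 0.627). Without labelled control 3 it passed, at -0.21 with an adjusted p of 0.0354, and without labelled cKO 2 and labelled control 2 it was -0.18 (0.714). The authors' deposited table has it at 0.20 with an adjusted p of 0.0499984, at the edge of the threshold.

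Pou2f2, the cone-favouring repressor of Nrl (chromosome 7, 25087344 to 25179726, minus strand, mm10), was at 77.7, 57.7 and 61.8 CPM in labelled cKO 1, 2 and 3, against 83.5, 71.1 and 70.9 CPM in labelled control 1, 2 and 3. Labelled cKO 1 lay above labelled control 2 and 3, so the groups overlapped. The log2 fold change was -0.19 (SE 0.14, 95% interval -0.57 to 0.18, edgeR adjusted p 0.602). Without labelled cKO 1 it was -0.33 (adjusted p 0.0259), without labelled cKO 2 it was -0.11 (0.844) and without labelled control 1 it was -0.11 (0.885). Without labelled cKO 2 and labelled control 2 it was -0.15 (adjusted p 0.838). Of the summed CPM per kilobase of the pair, Pou2f2 held 58.6% to 65.2% in labelled cKO and 61.6% to 62.6% in labelled control.

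Ikzf1, the early competence factor (chromosome 11, 11685003 to 11772926, plus strand, mm10), had 22, 23 and 17 counts in labelled cKO 1, 2 and 3, against 31, 25 and 26 counts in labelled control 1, 2 and 3. The groups did not overlap. In CPM it was at 0.83 ± 0.15 in labelled cKO and 1.13 ± 0.15 in labelled control (SD, n = 3 each). The log2 fold change of -0.45 had an SE of 0.31 (95% interval -1.10 to 0.20, edgeR adjusted p 0.515), so at this depth no difference was detectable. Without labelled cKO 2 and labelled control 2 it was -0.64 (SE 0.40). Ikzf1 is also a gene of blood cells. Of 9 tested markers of microglia and other leukocytes, 8 had a log2 fold change below 0 and none passed (edgeR, 1 at an unadjusted p of 0.05, 0 by DESeq2 and 0 by limma-voom). Their summed level was 22.9 to 24.1 CPM in labelled cKO and 24.9 to 30.1 CPM in labelled control, with the pan-leukocyte gene Ptprc at 8 to 12 counts per library. Their part in the Ikzf1 values was not tested.

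**Figure D3:**
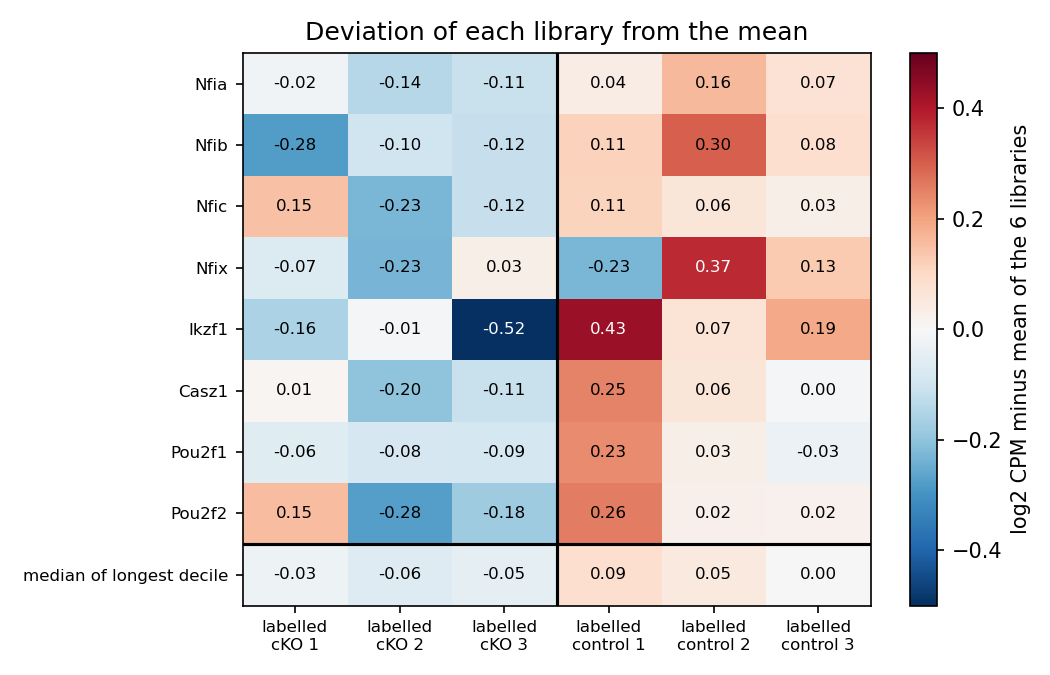
Each cell gives log2 CPM minus the mean of the 6 libraries, with the libraries labelled cKO in the left 3 columns and those labelled control in the right 3, and the last row is the median over the tested genes in the decile of longest exon length. Labelled control 1 is the highest library for Casz1 (0.25), Pou2f1 (0.23), Pou2f2 (0.26) and Ikzf1 (0.43), while labelled control 2 is the highest for Nfia (0.16), Nfib (0.30) and Nfix (0.37).

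The factors were alike to different degrees across the libraries. Casz1 followed Pou2f2 (Pearson r of log2 CPM 0.93 over 6 libraries) and Pou2f1 (r 0.91), and Nfic followed Pou2f2 (r 0.95). Ikzf1 was nearest to Pou2f1 (r 0.78). Nfia was about equally near to Nfib (r 0.77), Nfic (r 0.72), Nfix (r 0.69) and Casz1 (r 0.68), so it did not set the late Nfi genes apart from the others. Nfix stood furthest from the rest, with an r of 0.04 with Casz1 and of -0.18 with Pou2f1. These values describe 6 libraries that share normalization and the trend with exon length given next.

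The 3 protein-coding genes nearest to Nfib in pattern were Hr, a nuclear receptor corepressor (r 0.997), the RNA-editing enzyme gene Adarb1 (r 0.991) and Epb41l5 (r 0.989). Those nearest to Casz1 were Rreb1, a zinc-finger transcription factor, Cnot3, a subunit of the deadenylase complex, and Mllt6 (r 0.998 each). Those nearest to Pou2f1 were Ankhd1 (r 0.996), Tmem8b (r 0.992) and the chromatin remodeller Baz1a (r 0.988). None of these 9 genes passed by edgeR (adjusted p 0.131 to 0.647). They were picked for the highest r among all tested protein-coding genes over 6 libraries, so high values follow from the choice.

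Fold changes varied with gene length over all genes. Over the 17251 tested genes with a length, log2 fold change and summed exon length had a Spearman rho of -0.27, a description across genes, which are not independent. Nfia, Nfib, Casz1 and Pou2f1, with 10891, 14957, 12224 and 16597 exon bases, lay in the decile of longest genes, and the other 4 in the eighth and ninth deciles. Among the 8 factors themselves the order differed, since Ikzf1, the shortest at 5777 exon bases, had the lowest log2 fold change (-0.45), and Pou2f1, the longest, was at -0.16. In the longest decile 80.0% of genes had a log2 fold change below 0, with a median of -0.09, and 2.95% were called lower. All 3 labelled cKO libraries lay below all 3 labelled control libraries for 9.30% of all tested genes and for 29.8% of the longest decile, against 4 of the 8 factors and 3 of the 4 in that decile.

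The trend differed by library. The median log2 CPM deviation of the longest decile was -0.03, -0.06 and -0.05 in labelled cKO 1, 2 and 3, and 0.09, 0.05 and 0.00 in labelled control 1, 2 and 3. Labelled control 1, the highest library for Casz1, Pou2f1 and Pou2f2, was thus also the highest for long genes as a class. With the trend of each library removed, all 8 factors still had negative values but none passed by edgeR. At an unadjusted p of 0.05, 2 of the 8 were lower in that fit, against 6.16% of all tested genes. Nfib was then at -0.22 (SE 0.07, adjusted p 0.156), Casz1 at -0.11 (SE 0.05), Nfia at -0.11 (SE 0.07) and Pou2f1 at -0.036 (SE 0.05). Ikzf1 hardly moved, at -0.43 (SE 0.31).

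**Figure D4:**
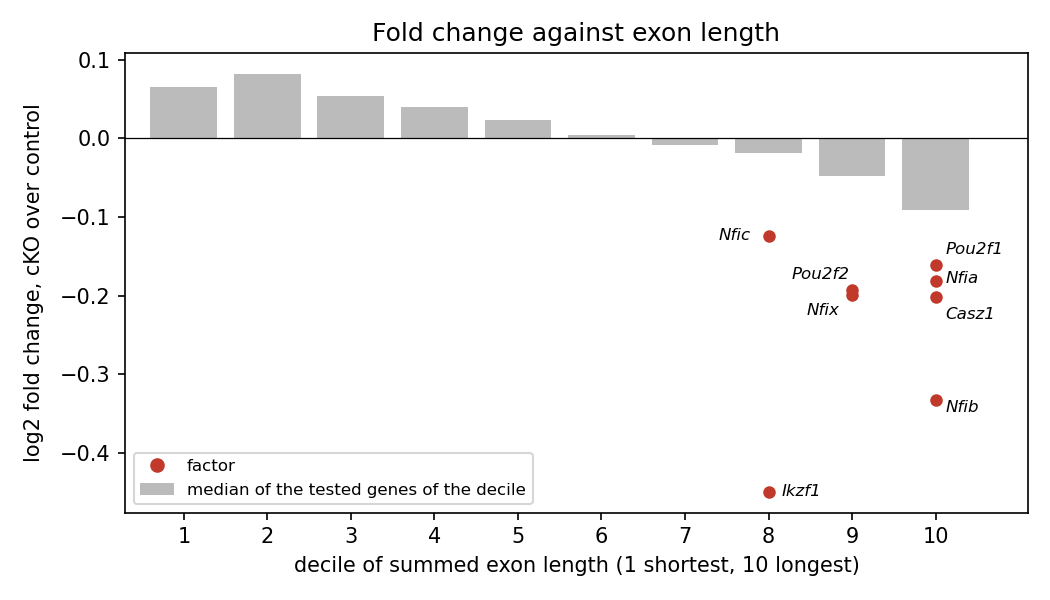
The grey bars give the median log2 fold change of labelled cKO over labelled control in each decile of summed exon length, and the red points are the 8 factors. The median is -0.09 in decile 10, and all 8 factors lie below the bar of their own decile, Nfic nearest to 0 at -0.12 and Ikzf1 lowest at -0.45.

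**Figure D5:**
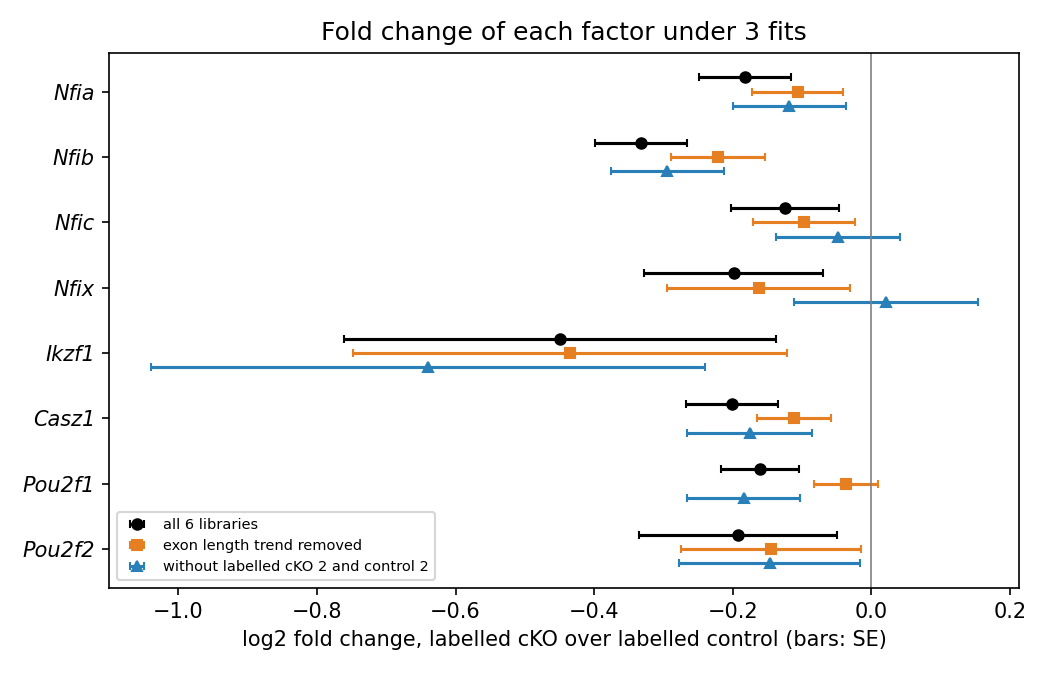
Points give the log2 fold change of each factor, labelled cKO over labelled control, with its SE, from all 6 libraries (black), with the exon length trend removed (orange) and without labelled cKO 2 and labelled control 2 (blue). Nfib keeps values of -0.33, -0.22 and -0.29, Pou2f1 is at -0.036 with the trend removed, and Nfix is at 0.021 without those 2 libraries.

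RefSeq promoter windows (GRCm38.p6) were held for 7 of the 8 factors, 14 windows in all, and none was held for Nfib. The 250 bases before each start were searched on both strands. The forkhead motif TGTTTAC, which Foxp proteins bind, and the octamer ATGCAAAT, which Pou2f proteins bind, occurred in 0 of the 14, against 3.17% and 1.6% of all 32851 windows. The palindromic nuclear factor I site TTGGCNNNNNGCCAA occurred in 0 of the 14 and in 0.0365% of all, and its arm TTGGC, which lies within it, in 3 of the 14 and in 41.5% of all. The windows at the upstream starts of Casz1 and Pou2f1 are shown because these genes had similar patterns across the libraries, with the TTGGC arm in capitals. No match says only that these letters are not in these windows.
Casz1, chr4:148804142-148804391, plus strand: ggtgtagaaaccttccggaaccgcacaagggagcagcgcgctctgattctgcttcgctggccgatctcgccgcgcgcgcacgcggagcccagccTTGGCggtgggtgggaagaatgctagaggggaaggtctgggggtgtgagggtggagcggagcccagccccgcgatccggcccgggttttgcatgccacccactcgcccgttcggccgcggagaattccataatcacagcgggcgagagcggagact
Pou2f1, chr1:166002635-166002884, minus strand: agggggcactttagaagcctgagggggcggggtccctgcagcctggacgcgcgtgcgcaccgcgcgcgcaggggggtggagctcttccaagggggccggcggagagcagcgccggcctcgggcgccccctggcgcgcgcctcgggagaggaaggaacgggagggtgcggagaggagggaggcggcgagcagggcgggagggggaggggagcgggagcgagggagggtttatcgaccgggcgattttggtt

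Exons of other genes overlapped several factors on the opposite strand, and whether counting used the strand is not given in the sources used here. The longest overlap was 3007 exon bases between Pou2f1 and the T-cell receptor gene Cd247, which had 3 to 13 counts per library. Casz1 shared 122 exon bases with the antisense gene Gm13205 (76 to 110 counts).

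Relatives of the factors were described next. For every gene list in this report, the count at an unadjusted p of 0.05 takes both directions. The share of all tested genes in both directions was not computed, so these counts have no matching background and are descriptive. In the lower direction alone, 8.64% of tested genes had an unadjusted edgeR p under 0.05. For the counts past the adjusted threshold, the totals over all genes in either direction were 135 by edgeR (0.781% of tested genes), 514 by DESeq2 and 13 by limma-voom. Of the other Ikaros and POU class genes, Ikzf2, Ikzf4 and Ikzf5 were tested and none passed (edgeR, 1 at an unadjusted p of 0.05, 0 by DESeq2, 0 by limma-voom). Ikzf4, which acts with Ikzf1 in the retina, was at 39.0 CPM in labelled cKO and 43.6 CPM in labelled control (log2 fold change -0.16, SE 0.07), and Ikzf5 at 52.1 and 48.3 CPM in labelled cKO and labelled control (0.11, SE 0.06). Ikzf3, Pou2f3 and the B-cell coactivator Pou2af1 had at most 4, 2 and 2 counts in any library. Lymphocyte markers were likewise near 0, with 3 of 6 at 0 throughout and a summed 0.12 to 0.33 CPM in labelled cKO and 0.04 to 0.21 CPM in labelled control.

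Among 15 early-biased progenitor genes, 1 was higher and 1 lower past the threshold, and 8 had a log2 fold change below 0 (median -0.04). The higher one was Foxp1 itself, and the lower one was its paralogue Foxp2 at 18.2 CPM in labelled cKO and 26.7 CPM in labelled control (log2 fold change -0.56, edgeR adjusted p 6.31e-04). Without labelled cKO 2 and labelled control 2, 1 of the 15 passed. Of 16 late-biased progenitor genes outside the 8 factors, none passed by edgeR (7 at an unadjusted p of 0.05, 2 by DESeq2, 0 by limma-voom), 9 lay below 0 and the median was -0.06. The most abundant were Dkk3 (log2 fold change 0.12, SE 0.05), the RNA-decay factor Zfp36l1 (-0.14, SE 0.06), the Notch effector Hes5 (0.10, SE 0.05) and the homeobox gene Lhx2 (-0.03, SE 0.05). The late-biased genes thus had values on both sides of 0.

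Casz1 and Ikaros proteins act with the NuRD chromatin-remodelling complex. Of its 14 genes none passed by edgeR (5 at an unadjusted p of 0.05, 1 by DESeq2, 0 by limma-voom), and the median log2 fold change was 0.01. The ATPases Chd4 and Chd3 were at -0.15 (SE 0.06) and -0.23 (SE 0.08), the histone chaperone Rbbp4 at 0.13 (SE 0.05) and Mta1 at -0.12 (SE 0.05).

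Of 9 genes of cone and rod fate, none passed by edgeR (1 at an unadjusted p of 0.05, 0 by DESeq2, 0 by limma-voom), and the median was -0.02. Otx2, the master regulator of photoreceptor precursors, was at 0.03 (SE 0.05), Crx at -0.01 (SE 0.05), Prdm1, which favours photoreceptors over bipolar cells, at -0.05 (SE 0.05) and the cone receptor gene Thrb at -0.12 (SE 0.05). Nrl, the rod gene that Pou2f2 restrains, was low at 7.41 CPM in labelled cKO and 6.98 CPM in labelled control (log2 fold change 0.08, SE 0.13).

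Markers of other cells in the dissection moved as follows, and their part in the values of the 8 factors was not tested. Amacrine and horizontal cell markers summed to 388 to 402 CPM in labelled cKO and 444 to 474 CPM in labelled control. Of these 6 markers 2 were called lower (Tfap2b and Prox1), against 0.486% of all tested genes. The number called was 0 without labelled cKO 2 and labelled control 2 and 0 with the exon length trend removed. Astrocyte and optic nerve markers, a cell type rich in Nfia, summed to 10.3 to 18.4 CPM in labelled cKO. In labelled control they summed to 17.6 to 20.2 CPM, so the ranges overlapped, and Gfap had 3 to 24 counts. Of the 4 tested, 0 were called and the signs were split. Pax2 (-0.51, SE 0.45) and Pdgfra (-0.43, SE 0.16) lay below 0, and Gfap (0.67, SE 0.50) and Aldh1l1 (0.15, SE 0.17) above. Endothelial markers summed to 300.4 to 309.7 CPM in labelled cKO and 331.4 to 356.6 CPM in labelled control, nearly all of it Kdr, while Pecam1 had 6 to 29 counts. Of the 5 tested, 2 lay below 0 (Kdr and Cldn5) and 3 above 0, with 0 called. Those above were Pecam1 (0.08, SE 0.46), Cdh5 (0.20, SE 0.46) and Flt1 (0.07, SE 0.17). The sum thus describes Kdr and not endothelial markers as a class. Lens, mesenchyme, pigment epithelium, erythroid and muscle markers had ranges that overlapped between the groups.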

How the data were processed

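Whole-retina RNA was sequenced as ribosome-depleted, directional, paired-end libraries, per the labels' protocols. Cutadapt 2.8, DESeq2 1.32.0, featureCounts 1.5.1 and STAR 2.7.6a on mm10 were used per the submitters' processing notes, with no settings stated there. The authors deposited unnormalized counts per gene and library. The authors' deposited table gives, per the file headers, a mean normalized count as a signal value, a test score, p-values before and after adjustment, and a log2 fold change and its standard error. Columns were matched by sample description. Gene names came from that table, and otherwise from GENCODE M21, which also gave positions and exon lengths.

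The counts were fitted with edgeR 4.0.16 (R 4.3.3) over all 6 libraries: filterByExpr, TMM scaling, genotype alone, robust quasi-likelihood test, Benjamini-Hochberg adjustment at 0.05 over all tested genes. Fold changes are labelled cKO over labelled control. CPM uses TMM-scaled library sizes, and standard errors were computed from each log2 fold change and F value. Pattern likeness is the Pearson correlation of log2 CPM with a prior count of 2. The chi-square of replicate pairs, divided by its degrees of freedom, was 7.39 to 12.5, so no pair looked like repeats of 1 library.

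Alternatives were RLE and upper quartile scaling, other filters, no robust estimation, DESeq2 1.42.0, limma-voom (limma 3.58.1), labelled sex as a covariate, a replicate block, removal of each library's exon length trend (lowess span 0.3), and leaving out libraries. The edgeR, DESeq2 and limma-voom fits were also run on simulated counts. Those counts had the same spread for every gene and no exon length trend, so that run does not test the shifts between fits given below. The rule for named genes took all 8 factors, Foxp1, the 3 genes most like Nfib, Casz1 and Pou2f1 in pattern, and from each list those past the threshold, otherwise up to 4 with the highest CPM. Foxp2, Ikzf3, Pou2f3, Pou2af1, Nrl and the overlapping genes were added for their role. The members and lists were chosen with earlier results of these data known.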

Additional observations from a re-analysis of the deposited data

How the results depend on the processing

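All 8 factors had log2 fold changes below 0 under 16 of the 17 alternatives. The exception left out labelled cKO 2 and labelled control 2, where Nfix was at 0.021, Nfib at -0.29 with no call, no factor passed (0 of 8) and 9 genes passed in all. The number of all genes past the threshold, 135, was 742 without a filter on low counts, 83 with a filter at 1 CPM, 10 without robust estimation, 514 with DESeq2, 13 with limma-voom and 38 with the exon length trend removed. The number of factors called, 1, was 3 without a filter (Nfib, Casz1 at -0.20 and Pou2f1 at -0.16), 2 with DESeq2 (Nfib and Casz1 at -0.20), and 0 without robust estimation (Nfib -0.33, adjusted p 0.118), with limma-voom (Nfib -0.33, 0.107) and with the length trend removed (Nfib -0.22, 0.156). Leaving out labelled cKO 1, 2 or 3 gave 361, 19 or 27 genes, and labelled control 1, 2 or 3 gave 34, 21 or 778. Over these 6 fits 0 to 3 factors passed, with Nfia from -0.22 to -0.14, Nfib from -0.37 to -0.26, Nfic from -0.24 to -0.045, Nfix from -0.34 to -0.048, Ikzf1 from -0.56 to -0.31, Casz1 from -0.26 to -0.12, Pou2f1 from -0.21 to -0.079 and Pou2f2 from -0.33 to -0.11. The cause of these shifts was not tested. The alternative with labelled sex as a covariate used labels that Xist and Ddx3y went against in labelled cKO 2 and labelled control 2.

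The replicate numbers in the titles were not shown to pair the libraries. The correlations of deviations from the group means were 0.09, -0.05 and 0.20 for numbers 1, 2 and 3, and not every library correlated best with its own number. With the replicate block 1065 genes and 3 factors passed, Nfib, Casz1 (-0.20) and Pou2f2 (-0.20). Ikzf1 rests on at most 31 counts per library.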
